A study of Mus musculus with 5 samples.

Results

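Begain and the genes of the neighbouring imprinted Dlk1 domain were followed in RNA of hair follicle stem cells, sorted from the skin of adult mice in which Polycomb repressive complex 1 (PRC1) had been removed or kept. Members were chosen by name, as the genes that lie from Begain through Dlk1, Meg3, Rian and Mirg to Dio3 on mouse chromosome 12. Of the 6 listed genes, 5 had a row among the 30840 features of the table, and 4 of them passed the filter on low counts. Dio3, the gene of the enzyme that inactivates thyroid hormone, was not analysed here. The choice was made with the PRC1 i2KO against Control contrast already known, so the values of that contrast below describe the members and test nothing about them.

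The PRC1 i2KO group (3 libraries, numbered 1 to 3) had the genotype K15-CrePR1:Ring1a-/-, Ring1bflox/flox, and the Control group (2 libraries, numbered 2 and 3) was Ring1a-/-, Ring1bflox/flox. All mice therefore lacked Ring1a and carried floxed Ring1b, the paired enzymes that place ubiquitin on histone H2A, and each was given 1% RU-486 topically once a day for 10 days from postnatal day 50. K15-CrePR1 is a Cre recombinase that RU-486 switches on in keratin 15-expressing cells, so the groups differ by the transgene as well as by the Ring1b deletion it induces. At postnatal day 70, cells were sorted as EpCAM-positive, CD34-positive, α6-integrin-high and Sca1-negative, 50000 per sample. Library totals were 25461650, 43307694 and 34669748 counts in PRC1 i2KO 1, 2 and 3, and 42916190 and 11626006 in Control 2 and 3. Of the sort markers, Cd34 averaged 252 ± 75.5 CPM in PRC1 i2KO and 402 ± 107 CPM in Control, Epcam 93.2 ± 12.9 and 78.8 ± 7.66 CPM, and Itga6 312 ± 30.4 and 316 ± 7.86 CPM (SD, n = 3 and n = 2; CPM is the count scaled to library size with edgeR's TMM factors). Ly6a, which encodes Sca1, was at 4.28 ± 1.01 CPM in PRC1 i2KO and 1.21 ± 0.588 CPM in Control. Krt15, whose promoter drives the transgene and which marks the bulge, averaged 4307 ± 836 CPM in PRC1 i2KO and 4314 ± 62.0 CPM in Control. Rnf2, the gene of Ring1b, was at 39.9, 33.1 and 36.4 CPM in PRC1 i2KO and 27.7 and 37.5 CPM in Control. Counts of the whole gene pool deleted and kept exons, so they do not check the labels. Whether each library stands for another animal is not in the labels, so the p-values cover only the spread among the 5 libraries, which may be technical.

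The Dlk1 domain is expressed by parent of origin. On the paternal chromosome the protein-coding genes Dlk1, Rtl1 and Dio3 are active, and on the maternal chromosome a series of non-coding RNAs read in 1 direction, Meg3, Rian and Mirg, is active under the control of a methylated region between Dlk1 and Meg3. Dlk1 encodes a membrane protein with epidermal growth factor-like repeats, related to the ligands of Notch and known for holding back adipocyte differentiation. Rian carries box C/D small nucleolar RNAs and Mirg a large group of microRNAs in their introns. Begain lies next to Dlk1 and encodes a protein first found in brain, where it binds the guanylate kinase domain of the postsynaptic scaffold PSD-95; it is imprinted in sheep. PRC1 and the related complex PRC2 are known to gather at promoters rich in unmethylated CpG dinucleotides.

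Start sequences of the domain are shown because its genes differ widely in CpG content. They are RefSeq windows of 300 bases on GRCm38.p6, from 250 bases before to 50 after an annotated start, read along the gene's strand with CpG in capitals. All 6 listed genes matched, with 11 windows. The submitters' notes name the build mm39, so the coordinates locate these letters only. The first Begain window (chr12:109068168-109068467, minus strand) ends in the first bases of the transcript Begain-203, and the second (chr12:109053267-109053566, minus strand) in those of Begain-201. The Dlk1 window is chr12:109452573-109452872 (plus strand) and leads into the transcript Dlk1-210. That transcript is annotated as a retained intron of 668 bases, and no coding Dlk1 transcript was matched to the window. Its CpG content therefore need not be that of a coding Dlk1 start. The Meg3 windows are chr12:109540746-109541045 and chr12:109545148-109545447 (plus strand), and the second leads into Meg3-209.
Begain, upstream start: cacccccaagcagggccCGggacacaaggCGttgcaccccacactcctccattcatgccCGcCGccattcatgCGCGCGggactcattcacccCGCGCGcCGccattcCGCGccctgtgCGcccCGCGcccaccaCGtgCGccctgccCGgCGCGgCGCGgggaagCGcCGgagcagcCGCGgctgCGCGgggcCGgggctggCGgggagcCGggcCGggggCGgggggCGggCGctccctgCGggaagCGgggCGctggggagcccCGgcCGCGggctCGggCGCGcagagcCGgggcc
Begain, downstream start: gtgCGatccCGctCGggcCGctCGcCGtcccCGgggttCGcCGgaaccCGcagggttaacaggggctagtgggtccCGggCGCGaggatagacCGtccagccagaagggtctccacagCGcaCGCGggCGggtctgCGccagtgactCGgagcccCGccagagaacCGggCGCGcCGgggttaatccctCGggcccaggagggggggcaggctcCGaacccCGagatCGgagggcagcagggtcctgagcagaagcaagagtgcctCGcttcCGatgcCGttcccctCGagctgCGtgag
Dlk1: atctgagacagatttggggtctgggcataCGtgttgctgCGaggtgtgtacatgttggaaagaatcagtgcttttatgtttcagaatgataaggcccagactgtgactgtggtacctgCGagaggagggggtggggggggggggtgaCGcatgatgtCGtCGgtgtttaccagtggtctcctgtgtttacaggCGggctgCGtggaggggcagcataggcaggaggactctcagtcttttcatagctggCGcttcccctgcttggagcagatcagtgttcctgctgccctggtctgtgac
Meg3, upstream start: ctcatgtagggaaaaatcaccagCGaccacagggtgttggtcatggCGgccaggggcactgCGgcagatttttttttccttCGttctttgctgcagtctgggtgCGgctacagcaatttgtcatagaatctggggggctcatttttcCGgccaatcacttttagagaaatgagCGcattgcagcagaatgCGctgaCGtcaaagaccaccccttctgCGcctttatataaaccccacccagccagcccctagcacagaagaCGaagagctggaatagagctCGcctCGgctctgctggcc
Meg3, downstream start: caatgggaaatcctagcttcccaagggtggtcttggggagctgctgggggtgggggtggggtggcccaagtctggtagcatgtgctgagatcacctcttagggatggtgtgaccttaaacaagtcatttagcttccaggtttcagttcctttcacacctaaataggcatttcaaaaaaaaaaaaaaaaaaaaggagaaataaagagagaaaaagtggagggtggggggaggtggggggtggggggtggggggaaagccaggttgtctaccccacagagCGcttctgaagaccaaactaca

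CpG was dense in all 5 start windows of Begain and varied among those of the non-coding genes. The 5 Begain windows held 42, 46, 35, 34 and 38 CpG, where the median over 32851 RefSeq windows was 7 with quartiles of 3 and 20. The window with 46 CpG had more than 98.4% of all windows. The Dlk1 window, matched only to a retained-intron transcript, held 9 CpG. The Meg3 windows held 13 and 1, the Mirg window 10, the Rian window 0 and the Dio3 window 25. The upstream Meg3 window and the Mirg window were thus above the median, as was the Dlk1 window. The downstream Meg3 window and the Rian window were below the lower quartile. Short motifs were searched on both strands, after the letters had been seen. The letters CCGCCATT occurred 2 times in the upstream Begain window and in 0.758% of all windows. They contain GCCAT, the core letters read by the zinc-finger protein YY1, which 40.5% of windows hold. The palindrome TGACGTCA, the cAMP response element, occurred 1 time in the upstream Meg3 window and in 1.79% of all windows. TATAAA occurred 2 times in that Meg3 window, as overlapping matches on opposite strands, in none of the Begain windows and in 13.6% of all windows.

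**Figure D1:**
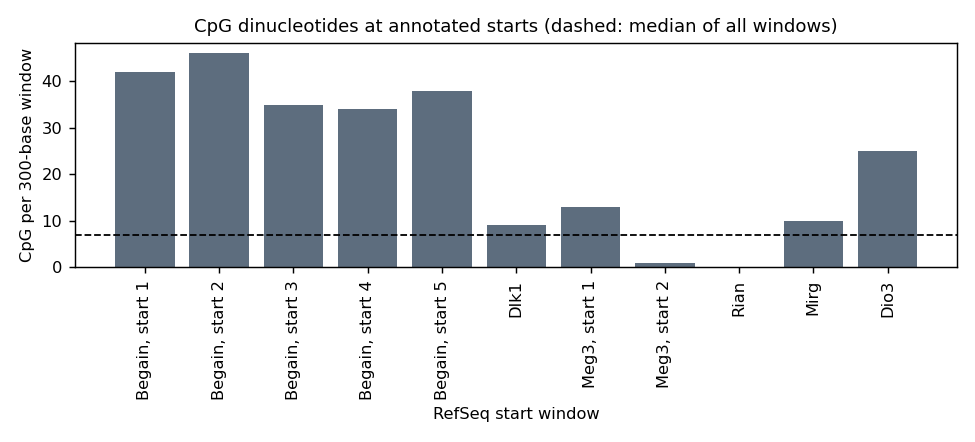
CpG dinucleotides (y axis, count per 300-base window) in the 11 RefSeq start windows of the 6 listed genes (x axis, in gene order, starts numbered in the direction of transcription), with the median of all windows dashed. The 5 Begain windows hold 34 to 46 CpG, Dio3 25 and Rian 0, against a median of 7.

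Begain and Dlk1 were both higher after PRC1 loss, while the maternally expressed RNAs of the same domain lay within or below their Control range. Begain (ENSMUSG00000040867.12) was at 13.2, 12.1 and 12.9 CPM in PRC1 i2KO 1, 2 and 3, and at 1.30 and 1.03 CPM in Control 2 and 3. The PRC1 i2KO libraries lay close together and the groups did not overlap. The means were 12.7 ± 0.530 CPM in PRC1 i2KO and 1.17 ± 0.190 CPM in Control (SD, n = 3 and n = 2), and the fitted log2 fold change was 3.43 ± 0.48 (SE), or 10.8-fold. The Control level rests on 64 and 13 counts in Control 2 and 3, against 287, 538 and 408 counts in the PRC1 i2KO libraries. With counts of both controls pooled, the 95% counting interval of the Control level was 0.982 to 1.56 CPM, and that of the 3 PRC1 i2KO libraries 11.9 to 13.3 CPM (exact Poisson, counting error only). In TPM, the authors' measure per transcript length, Begain was at 3.88, 5.51 and 5.17 TPM in PRC1 i2KO and at 0.607 and 0.772 TPM in Control, again without overlap. In bulk RNA, fewer cells of a type and less RNA per cell cannot be told apart, and this holds for every level given here.

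Dlk1 (ENSMUSG00000040856.17) was the most abundant member in CPM in every library. It was at 32.1, 40.0 and 23.5 CPM in PRC1 i2KO 1, 2 and 3, and at 5.68 and 2.46 CPM in Control 2 and 3. The groups did not overlap, but Dlk1 varied more within them than Begain did. Its highest PRC1 i2KO library was 1.70 times its lowest, and Control 2 was 2.31 times Control 3, where the same ratios for Begain were 1.08 and 1.26. The means were 31.9 ± 8.25 CPM in PRC1 i2KO and 4.07 ± 2.28 CPM in Control, with a log2 fold change of 2.93 ± 0.45 (SE), or 7.60-fold. In TPM it was at 8.00, 13.4 and 4.70 in PRC1 i2KO and at 1.80 and 0.575 in Control. Per length, Dlk1 stood at 2.06, 2.42 and 0.908 times Begain in PRC1 i2KO and at 2.96 and 0.745 times Begain in Control, so neither gene was the higher one in all libraries.

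Of the 4 tested members, edgeR's quasi-likelihood test called 1 higher (Begain; Benjamini-Hochberg adjusted p under 0.05) and 0 lower. Over all 22181 tested genes it called 0.126% higher and 0% lower; since the members were picked with this contrast known, nothing is read from the count. Ordered by p-value, Begain was the last of the 28 genes called and Dlk1 stood at place 41, just outside. DESeq2 called 2 of the 4 higher (Begain and Dlk1), where it called 3.57% of 21128 genes higher, 0.786% lower and 4.35% in either direction. Every PRC1 i2KO library above both controls, the order that Begain and Dlk1 showed, was found in 14.6% of tested genes. The call for Begain did not hold when any 1 of the 5 libraries was left out, although its log2 fold change then stayed between 3.30 and 3.62.

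**Figure D2:**
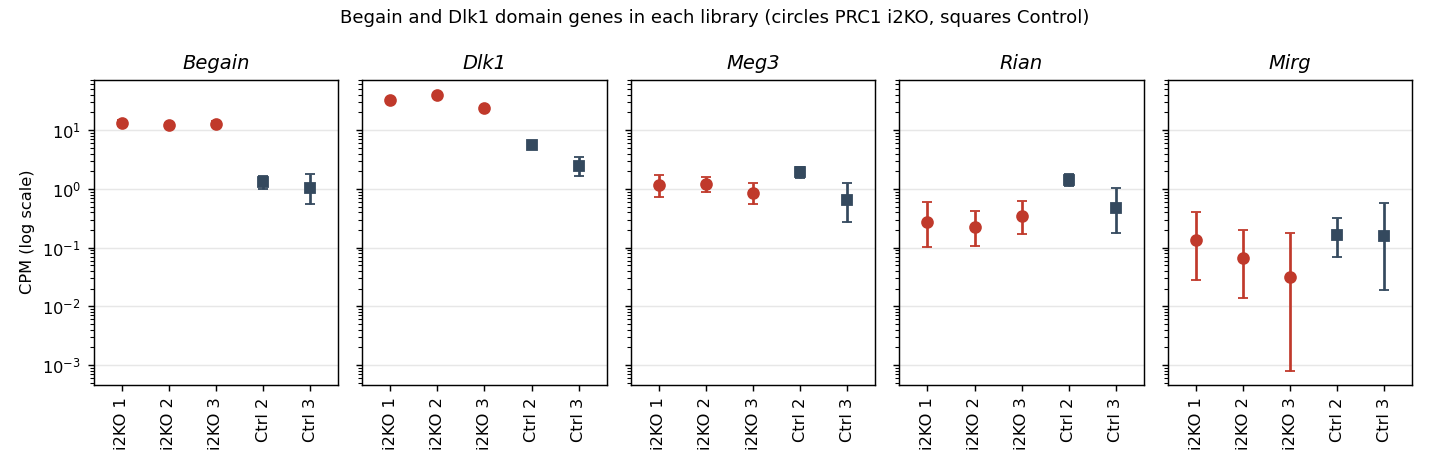
CPM (log scale) of the 5 members with a row, in each PRC1 i2KO library (circles) and each Control library (squares); bars are exact 95% Poisson intervals, which cover counting error only. Begain and Dlk1 are higher in the 3 PRC1 i2KO libraries than in both controls, while Meg3, Rian and Mirg lie near or below 1 CPM in most libraries.

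Meg3 (ENSMUSG00000021268.17), the first of the maternally expressed RNAs, was at 1.15, 1.20 and 0.854 CPM in PRC1 i2KO and at 1.93 and 0.635 CPM in Control 2 and 3. All 3 PRC1 i2KO values fell between the controls. The log2 fold change was -0.29 ± 0.88 (SE), and it was 0.75 without Control 2 and -0.85 without Control 3, so the direction rests on which control is used. Control 3 held 8 rounded Meg3 counts, with a counting interval of 0.274 to 1.25 CPM, and Control 2 held 95, with an interval of 1.56 to 2.36 CPM. Pooled counts gave intervals of 0.878 to 1.30 CPM in PRC1 i2KO and 1.36 to 2.02 CPM in Control, without overlap. That pool of 103 Control counts is mostly Control 2, so pooled intervals do not cover the spread between controls.

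Rian (ENSMUSG00000097451.10) was at 0.275, 0.226 and 0.348 CPM in PRC1 i2KO and at 1.44 and 0.476 CPM in Control. All 3 PRC1 i2KO values were under both Control values, an order that 15.3% of tested genes showed. The log2 fold change was -1.77 ± 1.05 (SE), and -0.74 without Control 2. Of the 77 Control counts, 71 came from Control 2. Pooled counts gave counting intervals of 0.182 to 0.402 CPM in PRC1 i2KO and 0.982 to 1.56 CPM in Control, a separation that leans on Control 2. PRC1 i2KO 1, 2 and 3 held 6, 10 and 11 Rian counts, and Control 3 held 6. The counting intervals of all 3 PRC1 i2KO libraries overlapped that of Control 3 (0.175 to 1.04 CPM). Such overlap is not a test, and the counts were not compared directly with that control.

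Mirg (ENSMUSG00000097391.8) had 3, 3 and 1 rounded counts in PRC1 i2KO and 8 and 2 in Control. It did not pass the filter on low counts, and its pooled levels of 0.0716 CPM in PRC1 i2KO (interval 0.0288 to 0.148) and 0.162 CPM in Control (0.0775 to 0.297) overlapped in their counting intervals. Counts of all 3 non-coding genes were partly not whole (25.5 for Meg3 in PRC1 i2KO 1, 71.3 for Rian in Control 2), whereas those of Begain and Dlk1 were whole to within 0.001 in every library. A fractional value means that the authors' estimate divided reads between features.

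Counts of Dlk1 and Meg3, 1 gene from each side of the domain, can be compared within each library, where library scaling cancels. Dlk1 had 27.5, 33.3 and 27.7 counts for each Meg3 count in PRC1 i2KO 1, 2 and 3, against 2.94 and 4.09 in Control 2 and 3. The groups did not overlap, although the ratio in Control 3 rests on 8 rounded Meg3 counts. With Meg3 within its Control range, the ratio restates the difference in Dlk1, which was known when the members were chosen. Rtl1, also paternally expressed, is not part of it. Meg3, Rian and Mirg together summed to 1.56, 1.49 and 1.23 CPM in PRC1 i2KO and to 3.53 and 1.27 CPM in Control. The sum in Control 3 was within the PRC1 i2KO range, and that in Control 2 above it. Poly(A)-selected gene counts do not tell the parental alleles apart, so imprinting itself was not measured.

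The 2 deposited measures together give the mean length of the transcripts to which a gene's reads were assigned, since the ratio of count to TPM grows with that length. The ratio was set to bases with 1276 genes that have a single transcript in GENCODE M21. Their transcripts were over 1000 bases long, with at least 50 counts in each library, and all came back within 1 base in every library. Meg3 had an implied length of 14548 bases in all 5 libraries, the length of Meg3-209, the longest of its 11 annotated transcripts. Mirg likewise had 1553 bases in every library, the length of Mirg-210. These are the values that assignment of all reads to that 1 transcript gives, and they were the same in both groups.

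Dlk1 had an implied length of 3914 bases in both controls, the length of the coding transcript Dlk1-208, against 3147, 3022 and 4149 bases in PRC1 i2KO 1, 2 and 3. No annotated Dlk1 transcript has any of those 3 lengths, so they are averages over several. They lay on either side of the Control value, 2 shorter and 1 longer. An exact two-sided permutation test of the length gave p = 0.6, where the smallest p that 3 against 2 libraries allow is 0.2. Begain had 2685, 2269 and 2157 bases in PRC1 i2KO, and 2707 and 1345 bases in Control 2 and 3 (exact permutation p = 0.8). The value of Control 2 is the length of Begain-203, the transcript that starts in the CpG-dense upstream window, and that of Control 3 rests on 13 counts. Rian had 353, 843 and 425 bases in PRC1 i2KO and 380 and 357 bases in Control (exact permutation p = 0.6). Its 20 annotated transcripts run from 294 to 8089 bases. These implied Rian lengths all lie below those used for the calibration, and in PRC1 i2KO 1 and Control 3 they rest on 6 rounded counts each. With implied lengths far below those of Dlk1, Rian stood at 8.79 and 2.14 TPM in Control, above Dlk1 (1.80 and 0.575 TPM), although it had fewer counts.

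**Figure D3:**
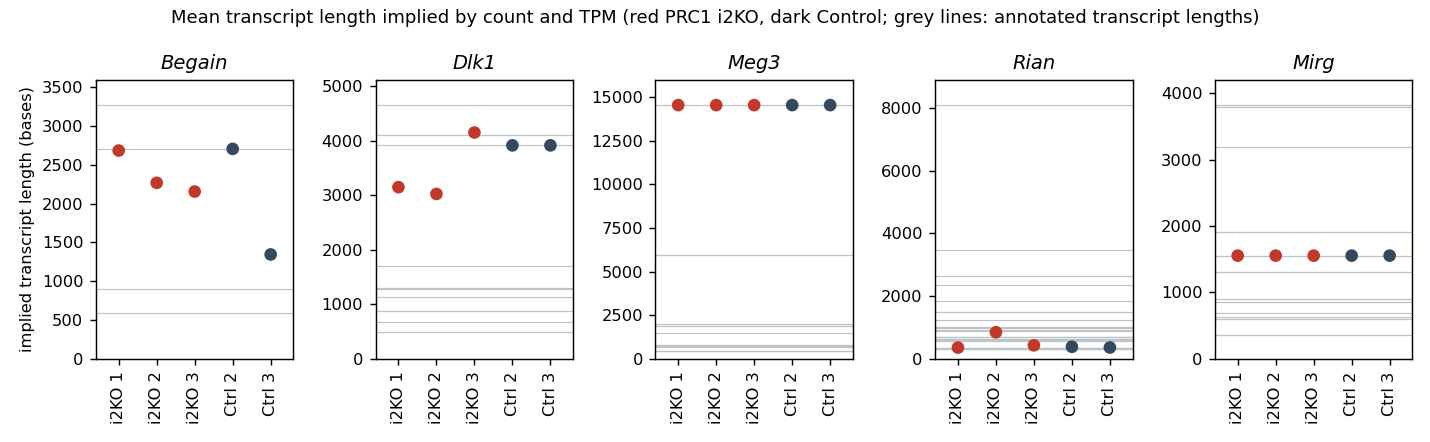
Implied mean transcript length in bases (y axis, from the ratio of count to TPM) of the 5 members in each PRC1 i2KO library (red) and Control library (dark), with annotated transcript lengths as grey lines. Meg3 sits at 14548 and Mirg at 1553 bases in all 5 libraries, and Dlk1 at 3914 bases in both controls but off every annotated length in PRC1 i2KO.

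Genes beside the members were examined to see where the difference ends. On the far side of Begain, its immediate coding neighbour Wdr25 was at 5.91, 5.96 and 4.33 CPM in PRC1 i2KO and at 12.2 and 2.62 CPM in Control, and Yy1 at 63.7 ± 7.21 CPM in PRC1 i2KO and 63.6 ± 0.864 CPM in Control. Inside the domain, Rtl1, a paternally expressed gene derived from a retrotransposon, was at 0.137, 0.609 and 1.71 CPM in PRC1 i2KO and at 0.345 and 0.159 CPM in Control, with PRC1 i2KO 1 below both controls. Ppp2r5c, a phosphatase subunit gene beyond Dio3, was at 82.4 ± 5.95 CPM in PRC1 i2KO and 67.0 ± 2.45 CPM in Control (log2 fold change 0.30, adjusted p = 0.618). These 4 genes are named for their position, and further ones were ranked among genes with a mean of at least 1 CPM. Of 22 tested flanking genes, 0 were called in either direction, and their median log2 fold change was 0.0045, against 0.0053 over all tested genes. DESeq2 called 2 of them higher, and 4 were higher and 0 lower at an unadjusted p under 0.05, which 7.43% and 3.51% of all tested genes reached. The further flanking genes with the largest changes were Slc25a29, a mitochondrial amino acid carrier (17.8 ± 3.84 CPM in PRC1 i2KO and 6.01 ± 0.199 CPM in Control, adjusted p = 0.188), the adaptor gene Traf3 (37.8 ± 6.12 and 18.1 ± 1.48 CPM, 0.205), the actin regulator gene Evl (24.3 ± 11.7 and 10.1 ± 3.15 CPM, 0.389) and Degs2, a sphingolipid enzyme gene (0.465 ± 0.379 and 2.09 ± 2.96 CPM, 0.684).

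Of the 127 features annotated from Begain to Ppp2r5c, 18 had a row, among them 2 of the 69 microRNA genes and 0 of the 23 snoRNA genes. The small RNAs of the domain were therefore not analysed here. The unnamed transcripts Gm37899 and B830012L14Rik, which lie between Rian and Mirg on the same strand, were at 0.367, 0.970 and 1.68 CPM and at 1.24, 0.609 and 1.39 CPM in PRC1 i2KO, against 2.50 and 1.82 CPM and 1.24 and 1.90 CPM in Control. Of the 7 tested features of this stretch that are not members, 0 were called.

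**Figure D4:**
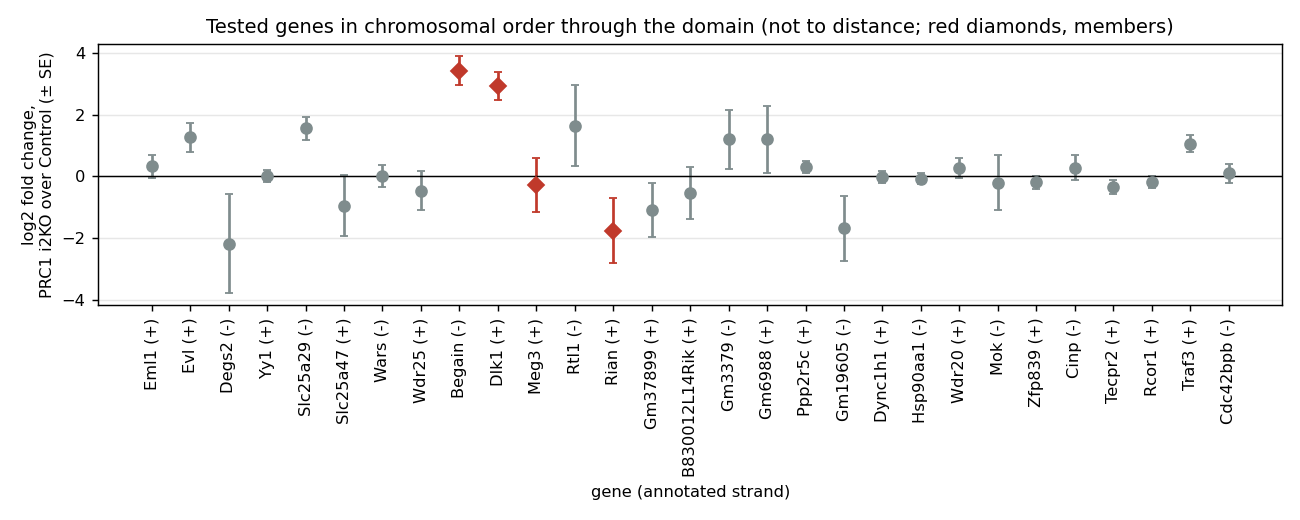
Log2 fold change of PRC1 i2KO over Control with its standard error (y axis) for tested genes in chromosomal order (x axis, not to distance, annotated strand in brackets), leaving out genes with no Control count; members are red diamonds. Begain and Dlk1 stand at 3.43 and 2.93, Meg3 and Rian at -0.29 and -1.77, and Wdr25 and Yy1 before Begain at -0.47 and 0.0022.

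Imprinted genes elsewhere in the genome were compared as lists of genes known as paternally or maternally expressed in mouse, a status that for several of them holds in some tissues only. Among 22 tested paternally expressed genes, Igf2, a growth factor gene, was called higher and 0 were called lower. Igf2 was at 245 ± 38.5 CPM in PRC1 i2KO and 1.84 ± 0.243 CPM in Control (log2 fold change 7.03 ± 0.28, edgeR adjusted p = 3.1e-05). Over the list, the median log2 fold change was 0.24. Sfmbt2, a gene related to Polycomb, had no Control count and 3.64 ± 1.97 CPM in PRC1 i2KO, which is at least 75.1-fold higher when 3 counts in the 2 controls together are taken as the floor (adjusted p = 0.0941). Zdbf2 (7.07 ± 0.929 CPM in PRC1 i2KO and 1.56 ± 1.38 CPM in Control, adjusted p = 0.315), Dlx6os1 (4.44 ± 1.86 and 0.621 ± 0.132 CPM, 0.229) and Rasgrf1 (13.7 ± 3.43 and 5.11 ± 1.84 CPM, 0.293) did not pass. Peg3 and Kcnq1ot1, both abundant here, had log2 fold changes of -0.08 and -0.03.

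Among 19 tested maternally expressed genes 0 were called, and the median log2 fold change was 0.12. The largest changes were those of Ascl2, a basic helix-loop-helix factor gene (5.0 ± 2.13 CPM in PRC1 i2KO and 0.389 ± 0.235 CPM in Control, adjusted p = 0.171), the transporter gene Slc22a18 (13.4 ± 3.84 and 3.75 ± 2.72 CPM, 0.290), the cell cycle inhibitor gene Cdkn1c (20.8 ± 14.5 and 9.71 ± 1.17 CPM, 0.604) and the adaptor gene Grb10 (24.1 ± 4.06 and 11.8 ± 4.08 CPM, 0.314). DESeq2 called 5 paternally and 2 maternally expressed genes higher, and edgeR's unadjusted p was under 0.05 for 6 and 3 higher and for 0 lower. H19, the maternally expressed RNA beside Igf2, had 3 counts over both controls and did not pass the filter. The members of the Dlk1 domain are in neither list.

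**Figure D5:**
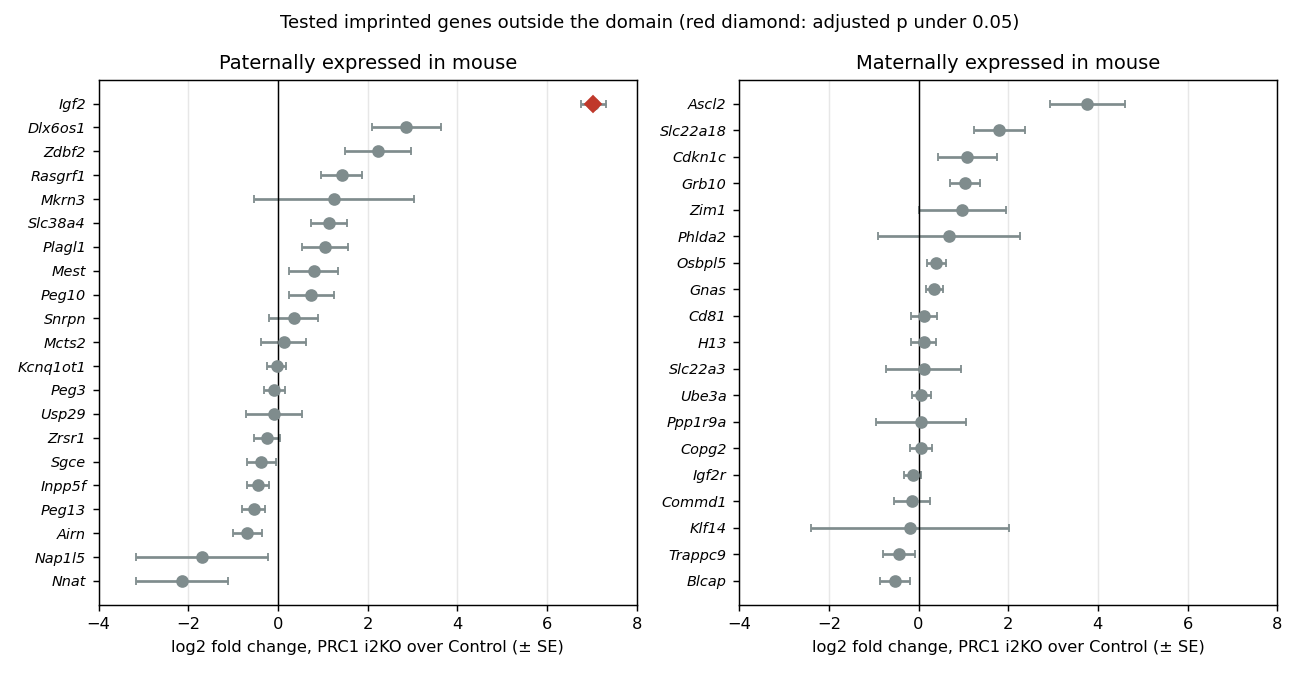
Log2 fold change of PRC1 i2KO over Control with its standard error (x axis) for tested imprinted genes outside the domain (y axis), listed as paternally (left) or maternally expressed (right), leaving out Sfmbt2, which had no Control count. Igf2, at 7.03, is the only gene past the threshold (red diamond), and most others lie within 2 log2 units of 0.

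Genes of the pathways in which the coding members act were taken as further lists. For Dlk1, 15 Notch ligand, receptor and target genes were tested, 0 were called, and the median log2 fold change was -0.11. Hes1, a transcriptional target of Notch, was at 41.8 ± 10.3 CPM in PRC1 i2KO and 16.6 ± 4.07 CPM in Control (1.33 ± 0.31, adjusted p = 0.177). The receptor gene Notch3 was at 17.5 ± 4.13 and 8.12 ± 0.745 CPM (1.11, 0.321), the target gene Hey1 at 7.45 ± 5.60 and 4.42 ± 0.367 CPM (0.75, 0.788), and the ligand gene Dll3 at 1.11 ± 0.329 and 3.04 ± 0.490 CPM (-1.45, 0.512). DESeq2 called 2 of the list higher and 0 lower, and edgeR's unadjusted p was under 0.05 for 3 higher and 1 lower.

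For Begain, 19 genes of the postsynaptic scaffold were tested and 0 were called, with a median of 0.17. The largest changes were ranked among genes with a mean of at least 1 CPM. Shank2 (2.88 ± 2.42 CPM in PRC1 i2KO and 0.420 ± 0.192 CPM in Control, adjusted p = 0.434), Shank3 (3.83 ± 2.01 and 1.31 ± 0.0492 CPM, 0.499), Nlgn1 (2.10 ± 1.20 and 0.681 ± 0.159 CPM, 0.569) and Dlg2 (31.0 ± 9.44 and 15.7 ± 2.66 CPM, 0.325) had the largest changes. DESeq2 called 0 of the list, and edgeR's unadjusted p was under 0.05 for 4 higher and 1 lower. Dlg4, which encodes PSD-95 and is named here as the known partner of Begain, was at 15.8, 18.0 and 14.4 CPM in PRC1 i2KO and at 26.2 and 24.0 CPM in Control, without overlap (log2 fold change -0.65 ± 0.27, adjusted p = 0.440).

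Around thyroid hormone, the substrate of Dio3, 13 genes were tested and 0 were called, with a median of 0.17. Dio2, the enzyme gene that activates the hormone, was at 4.24 ± 3.31 CPM in PRC1 i2KO and 1.88 ± 0.982 CPM in Control (adjusted p = 0.721). The receptor genes Thrb (12.1 ± 4.51 CPM in PRC1 i2KO and 7.43 ± 3.96 CPM in Control, adjusted p = 0.680) and Rxrb (18.6 ± 8.72 and 13.8 ± 1.33 CPM, 0.770) did not pass either. None of the 13 had an unadjusted p under 0.05 (0 higher, 0 lower), and 0 were called by DESeq2. Of 13 tested genes that keep or erase imprints 0 were called (median 0.06), and of 27 PRC1 and PRC2 subunit genes 0 were called (median 0.07). The largest changes there were in Tet1 (27.1 ± 3.77 CPM in PRC1 i2KO and 18.0 ± 11.4 CPM in Control, adjusted p = 0.647) and the PRC1 subunit gene Phc1 (5.48 ± 0.714 and 1.67 ± 1.56 CPM, 0.458). Only 1 subunit gene of both lists was higher, and 0 lower, at an unadjusted p under 0.05, and 0 were called by DESeq2.

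Since Dlk1 marks preadipocytes and Dlk1 and Meg3 are found in connective tissue, markers of other cells were measured beside them. Of 10 tested fibroblast and dermal papilla markers 0 were called, with a median log2 fold change of 1.81. Pdgfra, a receptor gene of fibroblasts, was at 32.5, 25.4 and 16.0 CPM in PRC1 i2KO and at 3.37 and 2.22 CPM in Control (3.11 ± 0.45, adjusted p = 0.0502), and Col1a1 at 12.9 ± 6.08 and 3.17 ± 0.336 CPM (0.215). Vim was at 4.61 ± 2.52 CPM in PRC1 i2KO and 0.288 ± 0.378 CPM in Control (adjusted p = 0.287), and Thy1 at 10.2 ± 7.57 and 2.73 ± 1.42 CPM (0.369). For these 4 of the 10 tested markers every PRC1 i2KO library was above both controls, as in 14.6% of all tested genes. Col1a2 of the same list was at 13.3, 20.3 and 20.8 CPM in PRC1 i2KO and at 16.8 and 15.7 CPM in Control, with overlap. Mfap5, which did not pass the filter on low counts, was below both controls in every PRC1 i2KO library (0.136 ± 0.0383 and 0.363 ± 0.176 CPM). Crabp1, a dermal papilla marker, was at 15.2, 9.50 and 3.07 CPM in PRC1 i2KO and at 4.02 and 1.59 CPM in Control, with overlap. DESeq2 called 3 of the list higher, and edgeR's unadjusted p was under 0.05 for 4 higher and 1 lower.

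Col3a1, Lum and Dcn, which fibroblasts express strongly, were low in most libraries of both groups. Col3a1 was at 0, 0.271 and 0 CPM in PRC1 i2KO and 0 in both controls, Lum was at no more than 0.16 CPM in any library, and Dcn was at 0.0917, 0.158 and 3.13 CPM in PRC1 i2KO and 0.162 and 0.0793 CPM in Control. The list summed to between 174 and 231 CPM in PRC1 i2KO and between 170 and 246 CPM in Control. Col6a1 (72.9 ± 19.2 CPM in PRC1 i2KO and 91.2 ± 17.2 CPM in Control) and Col6a2 (53.0 ± 11.9 and 86.5 ± 33.3 CPM) made up most of that sum. Without them it was 85.2, 84.1 and 82.1 CPM in PRC1 i2KO and 32.8 and 28.6 CPM in Control, without overlap. Both genes left out had lower means in PRC1 i2KO, and the split was made after the values were seen. Nothing is therefore read from that lack of overlap.

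Of 7 tested adipocyte markers 0 were called (median 0.86), and the defining marker Fabp4 was at 0.0917, 0 and 0 CPM in PRC1 i2KO and 0.0812 and 0.238 CPM in Control. The list summed to between 31.0 and 44.5 CPM in PRC1 i2KO and to 24.2 and 13.4 CPM in Control, without overlap. Of that sum, Cebpa gave 26.9, 22.4 and 16.4 CPM in PRC1 i2KO and 17.9 and 5.87 CPM in Control. Ly6a, the gene of the sort marker Sca1, also counts in it (4.28 ± 1.01 and 1.21 ± 0.588 CPM). The sum therefore does not stand for adipocyte markers alone. Zfp423, a preadipocyte factor gene, was at 0.825, 0.902 and 1.14 CPM in PRC1 i2KO and at 0.122 and 0 CPM in Control (log2 fold change 3.59 ± 1.35, adjusted p = 0.379). Every PRC1 i2KO library was thus above both controls, as in 14.6% of all tested genes. Lpl was at 12.4, 1.44 and 7.37 CPM in PRC1 i2KO and at 1.73 and 4.68 CPM in Control, with overlap. Cebpa, which keratinocytes also express, was at 21.9 ± 5.29 CPM in PRC1 i2KO and 11.9 ± 8.54 CPM in Control (adjusted p = 0.564). Of 4 tested neural markers 0 were called (median -0.08), and their sums were 10.2 to 27.2 CPM in PRC1 i2KO and 13.7 to 14.4 CPM in Control.

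Among 5 tested Merkel cell markers 0 were called, with a median log2 fold change of 5.62, or 3.09 with genes without a Control count set at their lower bound. Piezo2 was at 14.7 ± 2.22 CPM in PRC1 i2KO and 1.90 ± 0.102 CPM in Control (adjusted p = 0.0554), and Krt8 at 3.35, 1.06 and 1.90 CPM in PRC1 i2KO and 0.0203 and 0.0793 CPM in Control (0.177). Isl1 was at 0.871, 0.857 and 3.19 CPM in PRC1 i2KO, and Sox2 at 0.596, 0.293 and 0.348 CPM, and both had no Control count. For these 4 genes every PRC1 i2KO library was above both controls, as in 14.6% of all tested genes. Krt20, which had no Control count either, was at 0, 0.0677 and 0 CPM in PRC1 i2KO. Krt18, which did not pass the filter on low counts, was at 0.0917, 0.0677 and 1.20 CPM in PRC1 i2KO. Its Control values were 0.0406 and 0.159 CPM, with overlap. Cck was at 7.35 ± 4.82 CPM in PRC1 i2KO and 22.2 ± 10.8 CPM in Control (adjusted p = 0.357), and with it the list summed to 23.6 to 29.9 CPM in PRC1 i2KO and to 31.9 and 16.6 CPM in Control. DESeq2 called 3 Merkel cell markers higher, and 0 adipocyte or neural ones. An unadjusted p under 0.05 was reached by 4 higher and 1 lower Merkel cell markers, 2 higher and 0 lower adipocyte markers, and 0 higher and 1 lower neural markers.

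By edgeR, no muscle and mural, endothelial, melanocyte and Schwann, immune, or bulge and sort marker was called. DESeq2 called 1 immune marker of these lists higher, and edgeR's unadjusted p was under 0.05 for 3 higher and 5 lower over all of them. Of these, 2 higher (Ly6a, Krt14) and 3 lower (Cd34, Lgr5, Lhx2) were bulge and sort markers. Lgr5 was at 340 ± 36.8 CPM in PRC1 i2KO and 460 ± 15.1 CPM in Control. Lhx2 was at 492 ± 76.4 and 689 ± 41.5 CPM, and Krt14 at 1241 ± 240 and 763 ± 96.8 CPM. Of 14 tested bulge and sort markers, 5 had every PRC1 i2KO library below both controls and 2 above. Over all tested genes, 15.3% and 14.6% did. The part of other cells in the Dlk1 and Begain values was not tested.

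Genes whose profile over the 5 libraries was most like that of each member were found by the root mean square difference of log2 CPM after centring each gene, among 16912 other genes of at least 1 CPM. Closest to Begain were the kainate receptor gene Grik3 (0.21 log2 units), the non-coding 9330102E08Rik (0.24) and Bmp4 (0.28), a signalling ligand gene. Grik3 was at 15.9, 9.83 and 12.2 CPM in PRC1 i2KO and at 1.14 and 1.11 CPM in Control. Closest to Dlk1 were Flrt1 (0.12), Slc25a45 (0.17) and Bend4 (0.26), of which the adhesion protein gene Flrt1 was at 24.2, 24.9 and 15.8 CPM in PRC1 i2KO and at 3.35 and 1.51 CPM in Control. Begain and Dlk1 were 0.43 apart, which put Dlk1 at place 10 in the order from Begain and Begain at place 12 in the order from Dlk1. These distances include the difference between the groups, which was known when the members were chosen. The places therefore describe the genes and test no link between them. Closest to Meg3 were Zfp689 (0.09), Gkap1 (0.10) and Rdh10 (0.12), all of them nearer to it than Rian (0.79), at place 10618.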

How the data were processed

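Polyadenylated RNA of 5 samples was sequenced on an Illumina HiSeq from 50 ng of RNA (integrity number over 8), per the labels' protocols. The authors deposited 1 table with an estimated (expected) count and a TPM value per gene and sample. Per the submitters' processing notes the tools were RSEM 1.3.3, STAR 2.7.9a and DESeq2 1.38.2, and the build mm39, with no roles stated, and the sources used here do not say if counting used strand. Of the deposited expected counts, 51.7% were off a whole number by more than 0.001, and they were rounded for the tests. Identifiers matched GENCODE M21 in 99.97% of rows, 97.8% with the same version, and that annotation served for names, gene order and transcript lengths only.

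The test was the quasi-likelihood one of edgeR 4.0.16 (R 4.3.3), with filterByExpr, TMM scaling, no covariate, p-values adjusted after Benjamini and Hochberg over 22181 genes, and a threshold of 0.05; the method was tried on simulated counts. A fold change divides PRC1 i2KO by Control; ± is the SD of CPM values or the SE of a log2 fold change. Every adjusted p beside a gene is from this fit, unless another setting is named. Alternatives were DESeq2 1.42.0, limma 3.58.1 (voom, and log2 of TPM plus 1 or 0.1), other scalings, no filter, replicate blocks and leaving out each library. Total counts ran from 11626006 to 43307694, so 1 count stood for 0.0203 to 0.0793 CPM. The 95% intervals and the 3-count floor cover counting error only.

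Members and lists were chosen with earlier results of these data known. Beside the members, the text names every called gene of the lists. It also names up to 4 others per list with the largest log2 fold change at 1 CPM or more. Other genes are named for their position, their role or their order between the groups. The values of 1 gene that this rule picks are not reported here. The annotation places 1 gene on the opposite strand of Meg3 and 1 of Mirg, and without strand such reads cannot be told apart.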

Additional observations from a re-analysis of the deposited data

How the results depend on the processing

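Begain stayed positive under all 15 alternatives and past the threshold under 5. It fell short with library totals alone (log2 fold change 3.16), limma-voom (3.35), log2(TPM + 1) (1.78), log2(TPM + 0.1) (2.64) and a replicate block by description number (3.44). With each library left out in turn it ran from 3.30 to 3.62, with adjusted p between 0.0654 and 0.365, so its call depended on all 5 libraries; with 1 control left, that control is assumed to vary like the other group. Dlk1 was past the threshold with DESeq2 (2.95), with no filter (2.94) and with a replicate block by title number (3.01), and ran from 2.50 to 3.70 with libraries left out. Meg3 turned positive with a replicate block by description number (0.052) and without Control 2 (0.75, the highest with libraries left out; lowest -0.85). Rian stayed negative throughout (-2.41 to -0.74). The median of the 4 tested members, 1.32, was 0.87 with log2(TPM + 1), 1.63 with the block by description number, and 0.82 to 2.18 with libraries left out (highest without Control 2).

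Counts of called genes moved by over 1.5 times under many of the alternatives. Higher calls stayed within that range with edgeR's RLE scaling (30), library totals alone (27), mitochondrial genes left out (34) and PRC1 i2KO 2 left out (39). Against 28 higher and 0 lower, DESeq2 gave 754 and 166, no filter 140 and 12, limma-voom 4 higher, log2(TPM + 1) 2 and 1, log2(TPM + 0.1) 7 and 5, and library totals alone 3 lower. At an unadjusted p under 0.05 edgeR gave 778 lower. With libraries left out, higher calls ran from 4 (without Control 2) to 39 and lower calls from 0 to 4 (without PRC1 i2KO 2). They were 8 higher without Control 3 or PRC1 i2KO 1, and 14 without PRC1 i2KO 3. Members called numbered 2 with DESeq2, no filter or the title block, and 0 with library totals alone, limma-voom, either TPM scale, the description block or any library left out. Called genes of the other lists, 1 of 212 tested (Igf2), became 18 with DESeq2, 4 with no filter, 2 without mitochondrial genes and 6 with the title block. The causes were not tested. Scaling by library totals shifted the median of all genes by -0.26, and log2(TPM + 1) by -0.19.

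The controls are numbered 2 and 3 in titles but 1 and 2 in descriptions, and nothing else pairs the samples. Deviations of same-numbered libraries from their group mean correlated by 0.061 and 0.037 for titles and by -0.023 and -0.061 for descriptions. With 2 controls, those deviations are mirror images, so 0.061 and -0.061, both with PRC1 i2KO 2, are the same value with its sign turned. These values therefore do not decide between the numberings. A replicate block by title gave 140 higher and 25 lower genes, and one by description 10 higher. Without scaling to the median gene, the log2 ratio of implied lengths was 0.98 for Begain, 0.42 for Dlk1, 0.63 for Meg3 and 0.64 for Mirg. It was 0.31, -0.25, -0.04 and -0.03 with scaling; the lengths in bases rest on a calibration chosen after seeing the data. Depth limits Meg3, Rian and Mirg, with 8, 6 and 2 counts in Control 3.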
